A study of Mus musculus with 24 samples.

Results

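SOX8 and SOX9 are SoxE transcription factors, which bind DNA through an HMG box domain and are known in the retina from progenitors and Müller glia, its main glial cells. The histone mark H3K4me3 sits at the promoters of genes in use, and H3K27ac at such promoters and also at enhancers. Between the ages compared here the mouse retina completes cell birth and its photoreceptors, the light-sensing rods and cones, mature, grow outer segments and form synapses. The results below describe 473 H3K4me3 peaks of retina at postnatal day 17 (P17) that lay under a SOX8 or SOX9 peak at that age and under none at postnatal day 2 (P2).

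The peaks were chosen by overlap in the deposited lists: a P17 H3K4me3 peak was kept when at least 1 bp of it lay under a P17 SOX8 or SOX9 peak and no base of it lay under a P2 SOX8 or SOX9 peak. Of 9629 P17 H3K4me3 peaks, 473 met this rule, or 4.91%. They split into 248 with SOX9 only, 116 with SOX8 only and 109 with both factors. The gain of SOX and its class are therefore how the peaks were picked and not a result. The other P17 H3K4me3 peaks held SOX at both ages (1915), SOX at P2 only (2380) or SOX at neither age (4861, called never bound below, meaning only that neither list has a SOX peak there). At the edge of the rule, the 3 members with the fewest bases under SOX were at Adam15 (5 bases under SOX8), within Prdm8 (40 bases under SOX8) and at Chpf2 (121 bases under SOX9). Among the peaks that the fewest bases of P2 SOX kept out were those at Cacna1g (477 bases) and at Camk2g and Ndst2 (1263 bases).

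The study profiled whole wild-type retina at both ages by CUT&RUN, in which an antibody brings a nuclease to a chromatin protein and the released DNA is sequenced. Each reaction took 600000 nuclei. At each age SOX8 was profiled in 4 libraries, from 2 antibodies with 2 replicates, and every other target (SOX9, H3K27ac, H3K4me3) in 2. The 2 libraries per age of nonspecific IgG were not analysed here. Only 1 peak list per target and age was used, so no value below has a replicate error, no test between ages could be made, the depth is unknown, and intervals are 95% Wilson intervals that cover counting error only. Whole retina mixes cell types, and more cells with a mark cannot be told apart from more of the mark in each cell. The lists differ in length: SOX9 had 5476 peaks at P2 and 2855 at P17, SOX8 had 2653 and 2400, and H3K27ac had 287845 and 29909. The SOX peaks also differ in width: the SOX9 median was 2668 bp at P2 and 5336 bp at P17, and the SOX8 median 2217 and 2911 bp. A wider P17 SOX peak meets an H3K4me3 peak more easily, and its part in the gain was not tested.

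As promoters, the peaks fitted their name in most cases but not in all. A start site of a protein-coding gene (or, for genes with no start in the RefSeq table, an end of the gene) lay in 383 of the 473, or 81.0%, against 90.7% of all P17 H3K4me3 peaks. A further 67 lay within a gene away from its listed starts, and 23 lay outside genes. In all, 455 genes had a start or end in these peaks, 4.62% of the 9850 genes at any P17 H3K4me3 peak. For 104 of the 455 genes only the ends were known, so the peak may lie at the far end of such a gene. Among the genes named below, Pde6a, Pde6g, Rcvrn, Rp1l1, Ankrd33, Cacna2d4 and Cabp4 were placed in this way. So were Rgs11, Hdac10, Fosl1, Nptx1, Adgrb1 and Llgl2.

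The promoters of 8 of these genes are shown because the results turn on their marks and base composition. Each run covers 250 bases before to 50 bases after the start site (RefSeq, GRCm38.p6), 5′ to 3′ on the gene's own strand. Capitals mark every match, on either strand, to ACAAAG or ACAATG (SOX), TAATCC (CRX and OTX, homeodomain factors of photoreceptors), TGCTGA (part of the site of the rod factor NRL) and GGGCGG (SP and KLF factors). The first 4 are photoreceptor genes with SOX9 only and no P2 H3K4me3.
Grk1, chr8:13404831-13405130, plus strand: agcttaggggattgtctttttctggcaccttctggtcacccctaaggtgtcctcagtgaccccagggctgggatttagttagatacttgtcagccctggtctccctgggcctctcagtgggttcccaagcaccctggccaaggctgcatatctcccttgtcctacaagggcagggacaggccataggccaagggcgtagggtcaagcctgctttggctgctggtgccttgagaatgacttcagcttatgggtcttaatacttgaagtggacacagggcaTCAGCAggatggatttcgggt
Sag, chr1:87803430-87803729, plus strand: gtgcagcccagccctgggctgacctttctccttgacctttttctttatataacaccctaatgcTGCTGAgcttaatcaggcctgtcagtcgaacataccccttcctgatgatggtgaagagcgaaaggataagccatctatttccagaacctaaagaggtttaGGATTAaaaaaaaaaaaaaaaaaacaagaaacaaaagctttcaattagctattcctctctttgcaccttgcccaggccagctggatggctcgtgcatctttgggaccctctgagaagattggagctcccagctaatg
Aipl1, chr11:72037460-72037759, minus strand: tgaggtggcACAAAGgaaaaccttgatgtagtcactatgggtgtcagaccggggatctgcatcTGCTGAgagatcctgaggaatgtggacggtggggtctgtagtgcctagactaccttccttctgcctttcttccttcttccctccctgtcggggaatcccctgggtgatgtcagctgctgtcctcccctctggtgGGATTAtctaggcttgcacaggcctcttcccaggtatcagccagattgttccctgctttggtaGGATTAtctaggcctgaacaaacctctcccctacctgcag
Cngb1, chr8:95306536-95306835, minus strand: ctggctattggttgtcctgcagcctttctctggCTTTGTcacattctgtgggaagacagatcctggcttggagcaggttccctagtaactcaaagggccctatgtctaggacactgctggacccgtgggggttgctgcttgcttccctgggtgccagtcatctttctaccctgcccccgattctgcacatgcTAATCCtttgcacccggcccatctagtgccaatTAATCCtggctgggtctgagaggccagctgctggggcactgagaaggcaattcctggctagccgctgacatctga
Fscn2 and Esrrb gained both factors and also had no P2 H3K4me3.
Fscn2, chr11:120361284-120361583, plus strand: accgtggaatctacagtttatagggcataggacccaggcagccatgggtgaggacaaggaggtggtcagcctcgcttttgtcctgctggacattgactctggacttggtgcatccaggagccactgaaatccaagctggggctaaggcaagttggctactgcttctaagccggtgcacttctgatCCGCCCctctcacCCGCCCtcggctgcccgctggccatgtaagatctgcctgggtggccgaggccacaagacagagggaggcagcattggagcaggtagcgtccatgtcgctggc
Esrrb, chr12:86421394-86421693, plus strand: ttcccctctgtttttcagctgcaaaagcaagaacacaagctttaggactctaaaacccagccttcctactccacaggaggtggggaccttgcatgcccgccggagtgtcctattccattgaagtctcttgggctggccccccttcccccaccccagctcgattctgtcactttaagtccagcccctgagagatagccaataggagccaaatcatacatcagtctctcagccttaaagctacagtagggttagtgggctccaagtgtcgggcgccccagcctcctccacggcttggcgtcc
Tpra1 gained SOX8 only and Cdk5r2 both factors, and both already had P2 H3K4me3.
Tpra1, chr6:88902001-88902300, plus strand: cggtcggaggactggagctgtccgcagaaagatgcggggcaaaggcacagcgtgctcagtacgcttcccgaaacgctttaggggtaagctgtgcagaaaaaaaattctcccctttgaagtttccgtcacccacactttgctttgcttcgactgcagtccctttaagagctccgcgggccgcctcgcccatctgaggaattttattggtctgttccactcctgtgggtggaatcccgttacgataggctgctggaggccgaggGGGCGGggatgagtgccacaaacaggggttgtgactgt
Cdk5r2, chr1:74854779-74855078, plus strand: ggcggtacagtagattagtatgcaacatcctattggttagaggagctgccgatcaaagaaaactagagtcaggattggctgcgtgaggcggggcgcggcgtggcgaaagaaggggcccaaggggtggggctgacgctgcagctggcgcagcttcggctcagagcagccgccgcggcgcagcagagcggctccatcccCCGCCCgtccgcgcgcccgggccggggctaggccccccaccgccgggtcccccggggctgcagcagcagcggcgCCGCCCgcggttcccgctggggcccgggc

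These windows differ in CpG dinucleotides, which vertebrate genomes keep at many broadly used promoters. The ratio of observed to expected CpG was 0.0885 at Grk1, 0.203 at Sag, 0.137 at Aipl1, 0.170 at Cngb1, 0.380 at Fscn2 and 0.318 at Esrrb. It was 0.762 at Tpra1 and 0.862 at Cdk5r2. The 6 shown genes without P2 H3K4me3 were thus all lower than the pair that had it. Over all gained peaks the split was only partial. A ratio under 0.6 was found in 50% of windows without P2 H3K4me3 and in 25% of those with it. Rbp3 (0.110) and Nrl (0.113), with P2 H3K4me3, were low, while Adrb1 (0.766) and Nr4a1 (0.913), without it, were not.

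**Figure D1:**
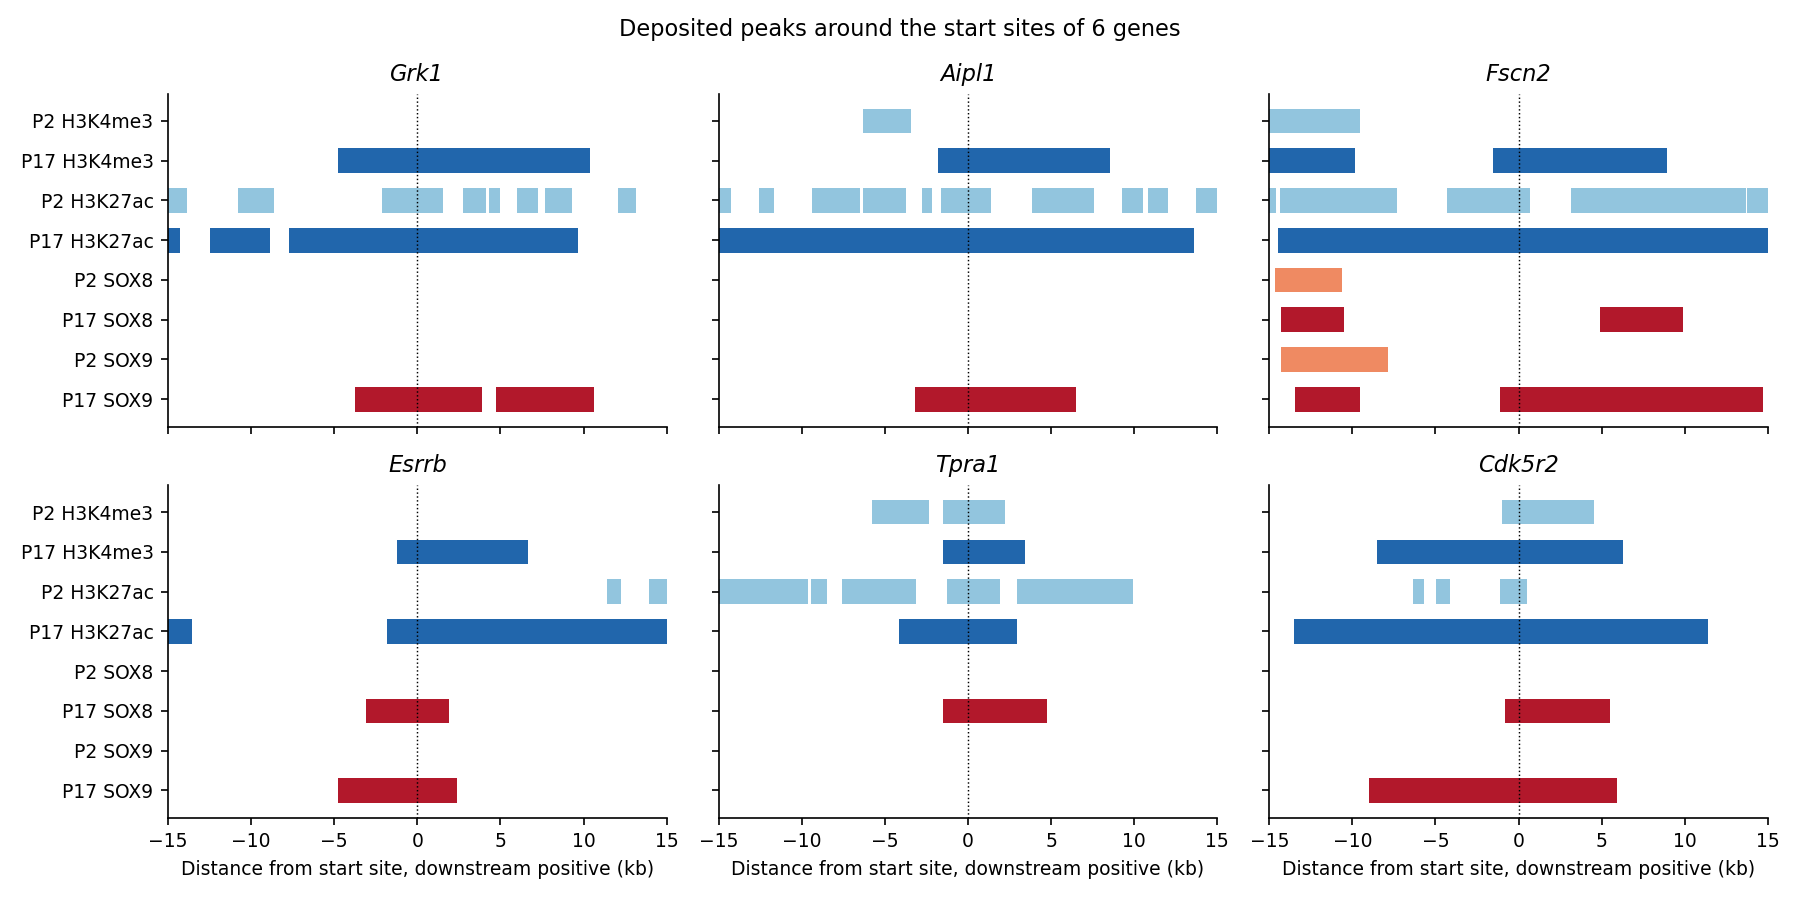
Deposited peaks of the 8 lists (rows) around the start sites of 6 genes, as distance in kb with downstream to the right. Bars span each peak, red for SOX and blue for histone marks, darker at P17. At each start site a P17 H3K4me3 peak and a P17 SOX peak lie where no P2 SOX peak does (the P2 SOX peaks at Fscn2 are over 7 kb upstream), and the 4 genes Grk1, Aipl1, Fscn2 and Esrrb lack P2 H3K4me3 under that peak.

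The peaks at some of these genes are given as examples of shape. At Grk1 (a kinase that shuts off the active photopigment), the P17 H3K4me3 peak ran from 4768 bp before to 10363 bp after the start site, and 2 SOX9 peaks covered 13257 of its 15132 bases. At Aipl1 (a chaperone needed to make the rod phosphodiesterase), 1 SOX9 peak ran from 3198 bp before to 6525 bp after the start. At Fscn2 (a photoreceptor actin bundler), SOX9 covered the start while the SOX8 peak under the same H3K4me3 peak began 4886 bp downstream of it. At Esrrb (an orphan nuclear receptor of rods), SOX8 and SOX9 peaks both reached over the start and no P2 peak of any list lay under the H3K4me3 peak. At Cdk5r2 (an activator of the kinase CDK5), 5564 of the 14797 bases of the P17 peak already lay under P2 H3K4me3.

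The first question was which marks these promoters carried at P2, before SOX was listed there. P2 H3K4me3 lay at 304 of the 473 peaks, or 64.3% (59.9 to 68.5%), so at 169 neither SOX nor H3K4me3 was listed at P2. The share over all P17 H3K4me3 peaks was 85.6%. Peaks with P2 SOX were much higher, at 97.2% where SOX was listed at both ages and 96.7% where it was listed at P2 only. The closer comparison is with peaks that, like the gained ones, had no P2 SOX: of those with no SOX at either age, 3773 of 4861, or 77.6% (76.4 to 78.8%), had P2 H3K4me3. The intervals of the gained peaks and of those never bound did not overlap, but peaks are not replicates and this difference was not tested.

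By class, P2 H3K4me3 was present at 72.4% of SOX8 only peaks (63.7 to 79.7%), 59.3% of SOX9 only peaks (53.1 to 65.2%) and 67.0% of peaks with both (57.7 to 75.1%). The widest gap was between SOX8 only and SOX9 only, and differences between the classes were not tested.

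P2 H3K27ac lay at 442 of the 473 peaks, or 93.4% (90.8 to 95.3%), against 96.9% of all P17 H3K4me3 peaks and 94.9% of those never bound. The P2 H3K27ac list is very long, and this share fell to 44.8% with only its widest peaks in the number of the P17 list. The matching share of the other peaks is not given here. In combination, 295 peaks (62.4%) had both P2 marks, 147 (31.1%) had H3K27ac without H3K4me3, 9 had H3K4me3 alone and 22 (4.65%) had neither. Among peaks never bound, 19.3% had H3K27ac alone and 3.07% had neither.

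**Figure D2:**
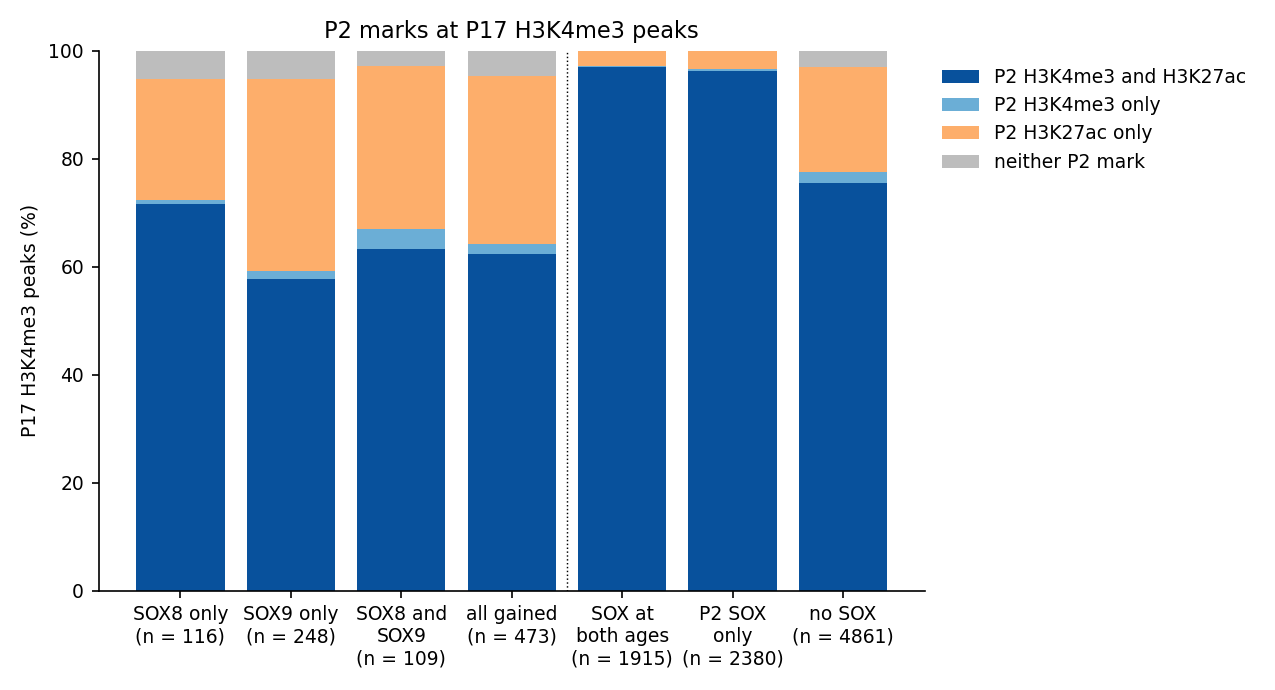
Share of P17 H3K4me3 peaks (%) by the P2 marks they overlap, for the peaks that gained SOX by class, all gained peaks, and the 3 other sets of P17 H3K4me3 peaks. P2 H3K27ac without H3K4me3 (orange) makes up 31.1% of the gained peaks and 35.5% of those with SOX9 only. It makes up 19.3% of peaks with no SOX at either age and 2.82% where SOX was present at both ages.

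P17 H3K27ac overlapped 442 of the gained peaks, also 93.4% (90.8 to 95.3%), against 90.2% of all P17 H3K4me3 peaks. The share was 97.9% with SOX at both ages (97.2 to 98.5%), 92.9% with P2 SOX only and 85.6% of those never bound. It covered the whole peak at 288 of them, or 60.9%, against 43.7% of peaks with SOX at both ages and 25.9% of those never bound. By class the share with P17 H3K27ac was 87.9% for SOX8 only (80.8 to 92.7%), 95.2% for SOX9 only (91.7 to 97.2%) and 95.4% for both (89.7 to 98.0%). Among the 31 without it were the peaks at Rgs11 (a G protein regulator of ON bipolar cells, SOX8 only) and Adgrb1 (an adhesion receptor, both factors).

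The gained peaks were wide, and a wide peak meets another list more easily. Their median width was 4830 bp, near that of peaks with SOX at both ages (4764 bp) and above that of peaks never bound (3248 bp). The P17 H3K4me3 peaks were split into 4 width classes of near equal size. In the narrowest class, up to 2951 bp, 47 of 2411 peaks (1.95%) had gained SOX, and in the widest, from 4710 bp, 254 of 2407 (10.6%) had. The difference in P2 H3K4me3 from never bound peaks varied with width. In the narrowest class 70.2% of gained and 72.0% of never bound peaks had it, in the second 69.7% and 85.3%, in the third 71.7% and 82.7%, and in the widest 58.7% (52.5 to 64.5%) and 68.4% (64.6 to 71.9%). The part of width in the overlap was not tested further.

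Where the mark was already present at P2, it was often wider at P17. At the 304 such peaks the median width was 4636 bp at P17 and 3897 bp for the P2 peaks they overlapped. The median ratio was 1.16, and 71.7% were wider at P17. For never bound peaks the ratio was 1.05 and 58.7% were wider, and for peaks with SOX at both ages 1.06 and 59.7%. For peaks with P2 SOX only it was 1.01 and 52.3%. The rule asks for overlap with SOX at P17, which a peak wide at P17 meets more easily. Its part in these ratios was not tested. By class the ratio was 1.11 for SOX8 only, 1.20 for SOX9 only and 1.23 for both. The widest gained peak, at Prph2, measured 27972 bp, of which 3980 lay under P2 H3K4me3. Prph2 encodes peripherin, a structural protein of outer segment disc rims.

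**Figure D3:**
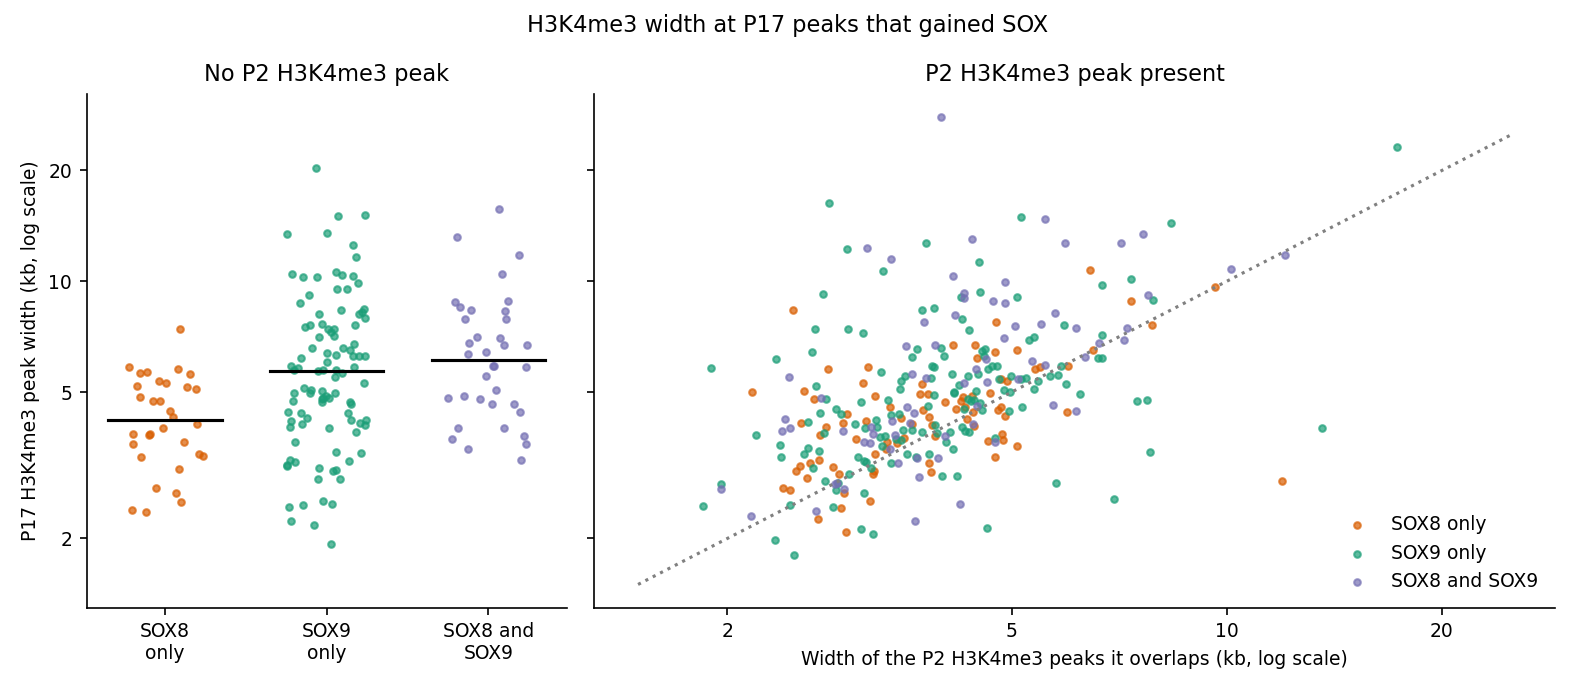
Width of each P17 H3K4me3 peak that gained SOX (kb, log scale), by SOX class. Left, the 169 peaks with no P2 H3K4me3, with the median of each class as a line; right, the 304 others against the width of the P2 H3K4me3 peaks they overlap, with equal widths as a dotted line, above which 71.7% of points lie.

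The SOX peaks at these promoters come from the same lists that chose them and are described without a test. The 473 peaks met 231 SOX8 peaks (of 2400) and 356 SOX9 peaks (of 2855), and 14 of them shared a SOX peak with another of the 473. SOX covered a median of 66.9% of the H3K4me3 peak in the SOX8 only class, 83.4% in the SOX9 only class and 91.3% with both. Taking the widest SOX peak of each factor at each H3K4me3 peak, the median widths were 3230 bp for SOX8 and 5903 bp for SOX9. The medians over every peak of the P17 lists, a different measure, were 2911 bp and 5336 bp. The nearest P2 SOX peak was a median of 42544 bp away and no closer than 299 bp, with 42 of the 473 within 5 kb of one. At 23 the P17 SOX peak reached a P2 SOX peak that lay outside the H3K4me3 peak, so SOX there was wider and not absent before.

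Where a listed start site lay in the peak, a SOX peak usually covered it: 126 of 149 for SOX8 (84.6%) and 200 of 226 for SOX9 (88.5%). At peaks with SOX at both ages these shares were 97.1% and 97.7%. The centres of the gained SOX peaks lay a median of 511 bp (SOX8) and 974 bp (SOX9) downstream of the start, against 65.8 bp and 162 bp where SOX was present at both ages. The centres of the gained SOX peaks thus lay further into the gene in this comparison of medians, with no test. These SOX peaks were used by the rule, and the part of the rule and of peak width in their position was not tested.

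The genes were then read against 15 lists by function, beside the background of 4.62% of genes. A gene found only at peaks with P2 SOX could not meet the rule, so counts are also given over genes at a peak without P2 SOX, where the background was 455 of 5218 genes, or 8.72%. In rod phototransduction all 21 genes had a P17 H3K4me3 peak, 9 of them (42.9%) at peaks that gained SOX, 3 at peaks with SOX at both ages and 9 at peaks never bound. Over the 18 at a peak without P2 SOX the share was 50%. Phototransduction is the cascade from the light-activated pigment through transducin and phosphodiesterase to closing of the cGMP-gated channel. Of the 9 genes, 7 gained SOX9 only and 2 both factors, and none SOX8 only. Of the 9, 7 had no P2 H3K4me3 under the peak, which was also absent at 15 of all 21 rod genes. P2 H3K27ac lay at 8 of the 9, against 96.9% of all P17 H3K4me3 peaks.

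Among genes that shut off the light response, the peak at Sag (arrestin, which stops the active photopigment; chr1:87800609-87815672) measured 15064 bp, with 3426 bases under SOX9 and 8007 under P2 H3K27ac. That at Rcvrn (recoverin, a calcium sensor that restrains the kinase encoded by Grk1) measured 10307 bp, with 4676 under SOX9. SOX9 thus covered 22.7% of the Sag peak and 45.4% of the Rcvrn peak, and 87.6% of the Grk1 peak.

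Of the phosphodiesterase subunits, which break down cGMP, all 3 on the list gained SOX9 only. Pde6b (catalytic) had 4298 of 13467 bases under SOX9 and no P2 H3K4me3. Pde6a (catalytic) had 4479 of 13547 bases under SOX9 and neither P2 mark, the only one of the 9 rod genes without P2 H3K27ac. Pde6g (the inhibitory subunit) had 10316 of 16271 bases under SOX9 and 2336 under P2 H3K4me3. That peak also holds a start or end of Ccdc137 and of Oxld1, so its marks cannot be given to Pde6g alone. Cngb1, a subunit of the rod cGMP-gated channel, had 3272 of 9511 bases under SOX9, in a peak shared with Tepp, and Gnb5, part of the complex that switches transducin off, had 7425 of 12338 under SOX9, 2836 under SOX8 and 3137 under P2 H3K4me3.

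The rod genes at peaks never bound were Gngt1, Cnga1, Guca1a, Guca1b, Gucy2e, Gucy2f, Rgs9, Slc24a1 and Pdc, so the gain did not extend over the whole cascade. All of these but Gucy2e and Pdc also lacked P2 H3K4me3. Width and the absence of P2 H3K4me3 move with the rod list. Of its 21 peaks, 20 lay in the widest class of P17 H3K4me3 peaks, against 24.4% of peaks at any protein-coding gene. Of the 15 rod peaks without P2 H3K4me3, 7 (46.7%) had gained SOX, while over all peaks of the widest class without P2 H3K4me3 this was 105 of 328 (32.0%). Read against such peaks, the rod share lies nearer the background than when read against all genes, and the part of width was not tested.

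**Figure D4:**
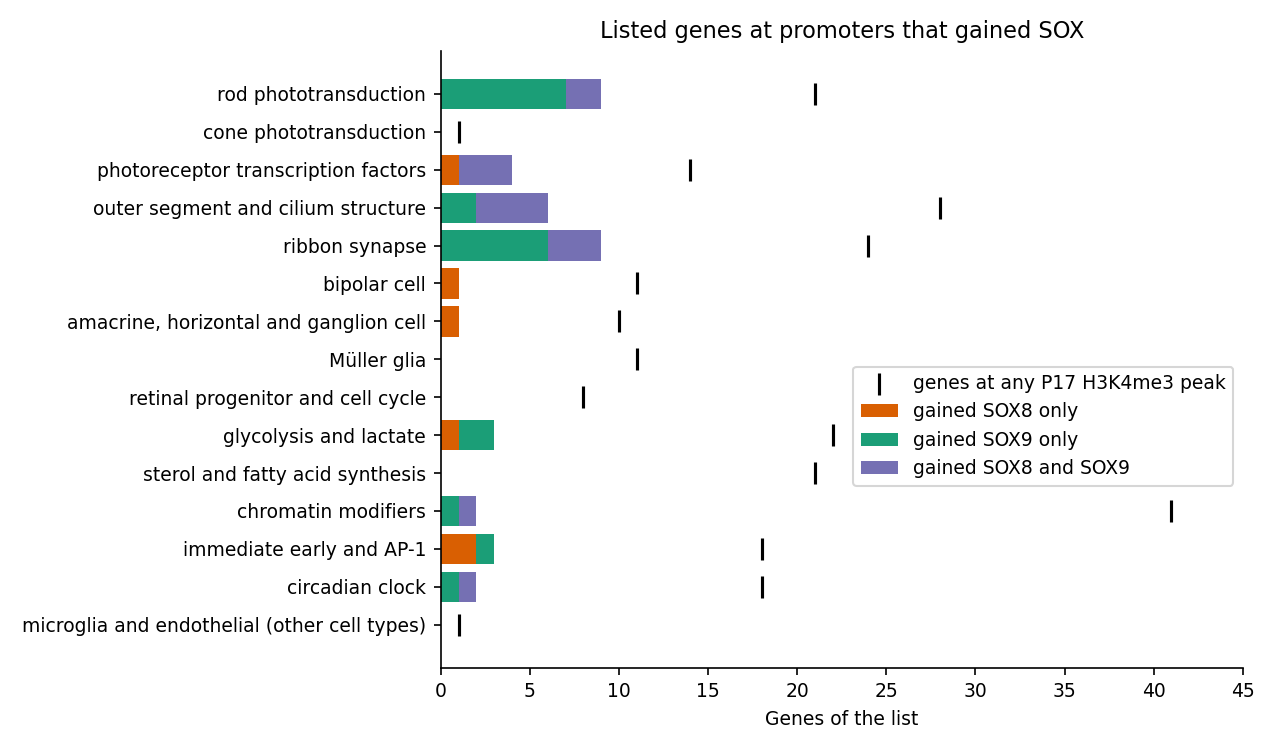
Number of genes of each list at P17 H3K4me3 peaks that gained SOX (bars, by class), with the number at any P17 H3K4me3 peak (black ticks). Rod phototransduction and ribbon synapse each have 9 genes at gained peaks, out of 18 and 19 at a peak without P2 SOX. Most genes of the progenitor and Müller glia lists had no P17 H3K4me3 peak. Of those with one, all 8 progenitor genes and 8 of the 11 Müller glia genes were only at peaks with P2 SOX. The rule leaves such peaks out, so among these genes the 0 is set mostly by the rule.

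Of 28 outer segment and cilium genes with a P17 H3K4me3 peak, 6 (21.4%) were at gained peaks: Prph2, Rp1l1, Tulp1, Fscn2, Rd3 and Aipl1. Over the 21 at a peak without P2 SOX this was 28.6%. Of this list's 11 peaks in the widest class without P2 H3K4me3, 3 (27.3%) had gained SOX, below the 32.0% of all such peaks. SOX9 lay at all 6 and SOX8 at 4 of them. Rd3, which restrains guanylate cyclase in photoreceptors, had its whole peak of 8201 bp under SOX9 with 2988 bases under SOX8, and 5749 bases had P2 H3K4me3. Rp1l1 (a microtubule protein of the outer segment) had 4770 of 8132 bases under SOX9 and no P2 H3K4me3.

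Of 14 photoreceptor transcription factor genes with a P17 H3K4me3 peak, 4 (28.6%) were at gained peaks, all from the 7 at a peak without P2 SOX. Of its peaks in the widest class without P2 H3K4me3, 2 of 4 had gained SOX. Nrl, the leucine zipper factor that sets rod fate, had 12411 of 13483 bases under SOX9, 2910 under SOX8 and 7642 under P2 H3K4me3, in a peak shared with Cpne6. Esrrb had 3606 of 7892 bases under SOX9 and 3101 under SOX8. Ankrd33, a regulator of photoreceptor genes, had 5604 of 5860 under SOX9 and no P2 H3K4me3. Thrb, the thyroid hormone receptor that sets cone opsin identity, gained SOX8 only, over 2318 of 5243 bases. Crx, Otx2, Nr2e3, Neurod1 and Mef2d were among the 7 with SOX at both ages, so only part of this group was new at P17.

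Synapse genes had the same number as rod phototransduction. Of 24 ribbon synapse genes with a P17 H3K4me3 peak, 9 (37.5%) were at gained peaks, 6 with SOX9 only and 3 with both. Over the 19 at a peak without P2 SOX this was 47.4%, and of the list's 7 peaks in the widest class without P2 H3K4me3, 5 had gained SOX. Ctbp2, whose second product RIBEYE builds the ribbon, had all 9765 bases under SOX9 and 6679 under P2 H3K4me3. Slc17a7 (VGLUT1, the vesicular glutamate transporter) had 8021 of 10260 bases under SOX9 and no P2 H3K4me3. Cacna2d4, an auxiliary subunit of the photoreceptor calcium channel, had 4787 of 6724 bases under SOX9 and 1919 under SOX8. The others were Cabp4 and Stx3, the synapse organiser Elfn1, Lrit1, Syt1, and Cplx3, of whose 7065 bases only 238 lay under SOX9. Of the 9, 5 had no P2 H3K4me3.

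Of 11 bipolar genes at a P17 H3K4me3 peak, 1 (Rgs11, whose peak is shared with Arhgdig) was at a gained peak, and of 10 amacrine, horizontal and ganglion cell genes, 1 (Slc32a1, the vesicular GABA transporter, with 456 of 9633 bases under SOX8). Müller glia genes had 0 of 11 and progenitor and cell cycle genes 0 of 8. Most genes of these lists had no P17 H3K4me3 peak and were not counted. Matched to RefSeq, the lists held 33 Müller glia, 27 progenitor, 23 amacrine, horizontal and ganglion cell and 17 bipolar genes. Among genes with such a peak, the rule set most of the zeros. All 8 progenitor genes and 8 of the 11 Müller glia genes were only at peaks with P2 SOX. Thus 3 Müller glia genes and no progenitor gene could have met the rule. Cone phototransduction and the markers of microglia and endothelium, cell types that whole retina also holds, had 0 of 1 each, from lists of 11 and 19 genes. In both lists that 1 gene was at a peak with P2 SOX.

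Among broadly used genes, glycolysis had 3 of 22, or 3 of the 11 at a peak without P2 SOX: Aldoc and Eno2, glycolytic enzymes, and Slc16a1, a lactate transporter, all with P2 H3K4me3. Sterol and fatty acid synthesis had 0 of 21 (6 without P2 SOX), and chromatin modifiers 2 of 41 (Hdac5 and Hdac10), or 2 of 6 without P2 SOX. Immediate early genes had 3 of 18, or 3 of 5 without P2 SOX. Of these, Atf3 (SOX8 only, 3259 of 3817 bases) and Nr4a1 (SOX9 only, 2798 of 3665 bases) had neither P2 mark. The peak counted for Fosl1, which holds starts of Ccdc85b and Fibp, lay wholly under P2 H3K4me3. Fosl1 was placed by a gene end only, so this peak may not be its promoter. Clock genes had 2 of 18, or 2 of 5 without P2 SOX: Tef and Hlf, related PAR bZIP factors. Tef had a further P17 H3K4me3 peak with SOX at both ages, so only 1 of its promoters is counted here.

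Among the peaks with the most bases under SOX, those with both factors included Prph2 (21387 bases), Cdk5r2 (14449), Tlcd3b (12555) and Nrl (12411). With SOX9 only they included Grk1 (13257), Pde6g (10316), Ctbp2 (9765) and Rbp3 (9737, the retinoid carrier between photoreceptors and pigment epithelium). With SOX8 only they were Nptx1 (5278, a neuronal pentraxin), Tpra1 (4930), Aldoc (4601), Bet1l and Ric8a (4380) and Rgs11 (4349). No SOX8 only peak of a listed rod phototransduction gene was found. Among these peaks the SOX8 only ones had the fewest bases under SOX, the value by which they were picked. P17 SOX8 peaks were also narrower than P17 SOX9 peaks in the whole lists, with medians of 2911 and 5336 bp, so this order is not read as a result. At the widest gained peaks with neither P2 mark stood Pde6a, Esrrb, Adrb1 (the beta-1 adrenergic receptor), Plk5 and Adgrb1. With P2 H3K27ac but no P2 H3K4me3 the widest included Grk1, Sag, Pde6b and Llgl2 (a cell polarity gene, 13182 bp).

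Promoter sequence, which the rule did not use, was read in 422 windows of 351 genes at the gained peaks. The observed to expected CpG ratio had a median of 0.602 in windows of gained peaks without P2 H3K4me3 and 0.792 with it. In never bound peaks these medians were 0.654 and 0.811, and over all 21263 protein-coding start windows the median was 0.567. A ratio under 0.6, a usual bound for CpG islands, was found in 50% of the 94 gained windows without P2 H3K4me3 and 25% of the 328 with it. In never bound peaks these were 42.1% and 17.2%. Low-CpG windows were commoner without P2 H3K4me3 in both sets, and commoner in gained than in never bound peaks either way, with no test. By class, 20.8% of SOX8 only, 30.7% of SOX9 only and 40.4% of windows with both factors were under 0.6.

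**Figure D5:**
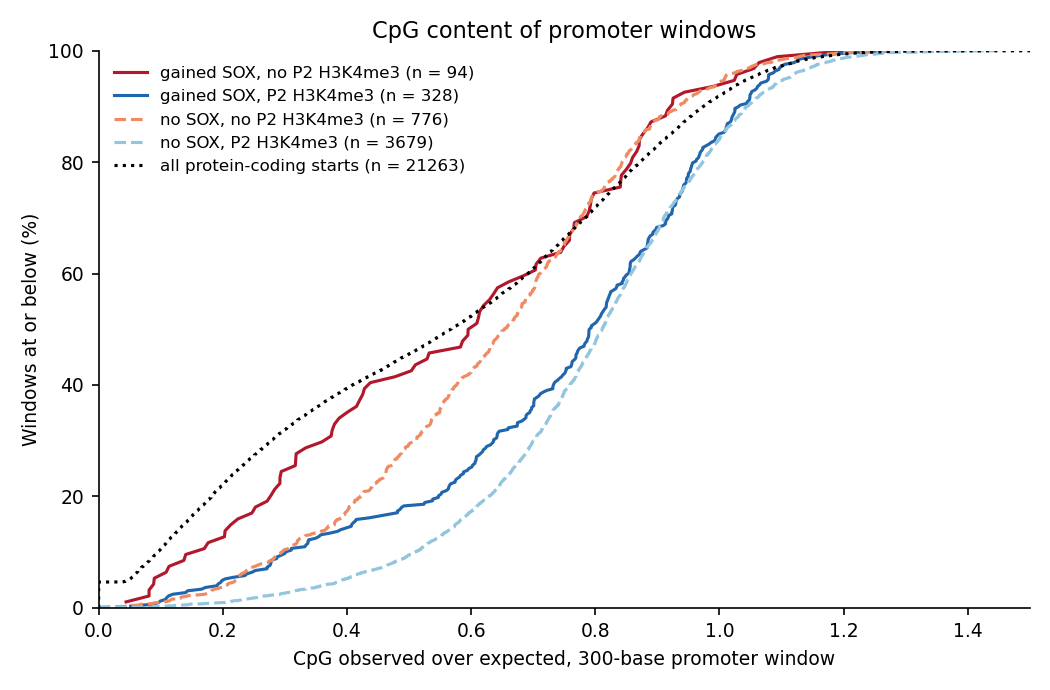
Cumulative share of 300-base promoter windows (%) by their observed to expected CpG ratio, for start sites in gained and never bound P17 H3K4me3 peaks, split by P2 H3K4me3, and for all protein-coding starts. The curves without P2 H3K4me3 (red and orange) lie left of those with it (blue), with medians of 0.602 and 0.654 against 0.792 and 0.811.

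The motif letters gave no mark common to the gained peaks. ACAAAG or ACAATG was found in 66 of the 422 windows (15.6%), against 25.7% of all start windows and 17.3% of never bound ones. By class it was 11.3% for SOX8 only, 12.7% for SOX9 only and 26.0% for both, or 27 of 104. The median GC content was 64% in gained windows and 56.3% in all, and its part in these shares was not tested. TAATCC was found in 7.82% of gained windows and 6.42% of all. It stood at 10.6% without P2 H3K4me3 (10 of 94), against 8.25% of never bound windows without P2 H3K4me3. TGCTGA was found in 14.7% of gained windows and 18.1% of all, and in 24.5% of those without P2 H3K4me3, against 20.5% of never bound windows without it. GGGCGG was found in 69.9% of gained windows and 46.2% of all. It was in 75.8% of windows with SOX at both ages, 72.2% with P2 SOX only and 63.1% of never bound ones, and within the gained classes in 84.9% with SOX8 only. In the sequences printed above, TAATCC stands in the windows of Sag, Aipl1 and Cngb1, and the SOX letters in those of Aipl1 and Cngb1, while Esrrb has none of the 4.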

How the data were processed

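CUT&RUN peak lists of SOX8, SOX9, H3K4me3 and H3K27ac in P2 and P17 mouse retina were used as deposited. Bowtie2, SEACR and the genome GRCm38 are named in the submitters' processing notes; their versions, the peak threshold, the use of IgG and the way libraries were combined are not given in the sources used here. The deposited lists give start and end of each peak, and their score is 0 throughout, so overlap and width were the only measures. Positions are printed counted from 1. Peaks overlapping by 1 bp counted as shared. Genes came from RefSeq tables of GRCm38.p6: 17492 of 21887 protein-coding genes had a start and strand, and 4395 were placed by either end. CpG ratio and motifs were counted in 300-base windows. The procedure recovered implanted overlaps when tested on simulated data. Python 3.11.15, pandas 2.3.3, numpy 2.4.6, scipy 1.17.1 and matplotlib 3.10.9 were used. The peaks, gene lists and named genes were chosen with earlier results of these data known. Named genes are listed genes at gained peaks, the 5 peaks per class with most bases under SOX, the 5 widest without P2 H3K4me3 (with and without P2 H3K27ac), and 3 on each side of the rule's edge. Alternatives changed the overlap, the SOX lists, the peak widths, the chromosomes and the distance to a start. Shares have Wilson intervals, and no test was run because each list is 1 value per target and age. Some peaks that this rule names are not reported here.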

Additional observations from a re-analysis of the deposited data

How the results depend on the processing

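The count of gained peaks was 450 to 473 under 7 alternatives (a shared peak must overlap by 50% or more of whichever is shorter, SOX lists cut to their wider 50%, no P2 SOX peak within 1 kb, peaks of at least 1 kb, autosomes only, merging of H3K4me3 peaks closer than 1 kb and, chosen after the data were seen, no P2 SOX under any part of the P17 SOX peak). With SOX lists cut to their wider 50%, the 465 gained peaks were 150 with SOX8 only, 236 with SOX9 only and 79 with both. How many of these are among the 473 is not given here. The P2 H3K4me3 share stayed inside its interval except with SOX lists cut to their wider 50%, at 72.3%, a setting that also shortens the P2 lists. It stayed below that of never bound peaks in all 5 settings where both were computed, 64.3 to 72.3% against 77.5 to 82.6%. These settings were not independent: autosomes only left the same 473 gained peaks, and the 1 kb minimum left 471. The P2 H3K27ac share moved to 44.8% with the shortened P2 list. Genes numbered 466 with starts within 1 kb, against 455. No paired analysis was possible because the lists carry no replicates. Depth could not be judged, and whether a peak missing at P2 lay just under the threshold was not tested.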

Other observations

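Of the gained peaks, 67 lay within a gene away from its starts and 23 outside genes; the 3 widest are named here, a choice made after their values were seen. The widest measured 20314 bp within Gnb1, the transducin beta subunit of rods, with SOX9 only and no P2 H3K4me3. The separate peak at the Gnb1 start had SOX at both ages and 6019 of its 7978 bases under P2 H3K4me3. The next widest lay within Rp1 (14958 bp, SOX9 only), which encodes a microtubule protein of the outer segment, and within Agpat3 (12673 bp, SOX9 only). Both of these had P2 H3K4me3.

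Of the 1005 microRNA hairpins in the RefSeq table, 7 lay in 6 gained peaks. The number in all P17 H3K4me3 peaks is not given here, so no excess is read from this count. One peak of 7627 bp, with SOX9 only, no P2 H3K4me3 and 2115 bases under P2 H3K27ac, held Mir129-2 and Mir129b on chromosome 2 and no protein-coding start. The mature forms of Mir129-2 are printed to identify it, with the seed (bases 2 to 8) in capitals.
mmu-miR-129-5p: cUUUUUGCggucugggcuugc
mmu-miR-129-2-3p: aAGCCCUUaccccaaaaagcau

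None of the 473 gained peaks was on the X chromosome, which allows a share of up to 0.634% (the limit for 3 counts, counting error only). The X held 2.88% of all P17 H3K4me3 peaks, 4.96% of those never bound and 0.47% of those with SOX at both ages.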
